A study of Homo sapiens with 6 samples.

Results

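The genes of plasminogen activation were followed in WM164 melanoma cells with and without an HDAC8 expression vector. The group holds 9 genes, chosen by symbol from the 60504 genes of the count table: the plasminogen activators PLAT and PLAU, the urokinase receptor PLAUR, the inhibitor SERPINE2, the zymogen PLG, the clearance receptor LRP1, the matrix protein VTN, and S100A10 and ANXA2, which together bind plasminogen at the cell surface. WM164 is a human melanoma cell line with the BRAF V600E mutation, and HDAC8 is a class I histone deacetylase. RNA-seq libraries were made from cells with an empty expression vector (EV) and from cells with an HDAC8 expression vector, with 3 libraries in each group, and the comparison asks how an HDAC8 vector alters the transcriptome. The study introduced the plasmids by lipofection and kept transfected cells in hygromycin, a selection that both groups share. Whether the transfected cells were pools or clones is not given in the sources used here. The labels number the libraries by biological replicate without saying that they came from separate transfections, so p-values measure the spread between these libraries.

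Plasminogen is an inactive zymogen, made mainly by the liver, that tissue plasminogen activator (tPA, encoded by PLAT) and urokinase (uPA, encoded by PLAU) cleave to plasmin, a broad serine protease that dissolves fibrin and degrades extracellular matrix. Urokinase is held at the cell surface by its receptor uPAR (PLAUR), whereas plasminogen and tPA are held by receptors such as the heterotetramer of annexin A2 and S100A10. Serpins such as SERPINE2 (protease nexin-1) trap the activators and thrombin, and LRP1 takes the trapped complexes into the cell, so that activation is set by the balance of these proteins. The system is known in melanoma for its part in invasion.

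Total counts ran from 34741083 to 42041462 per library, and 3 counts correspond to 2.57 to 3.27 normalized counts, where a normalized count is the deposited expected count divided by the size factor of its library. Mitochondrially encoded genes took 9.66% to 12.8% of the counts in EV libraries and 4.46% to 7.94% in the others, and fold changes of the members were also fitted without them. The transcript of HDAC8 itself changed by 0.15 ± 0.28 (SE) on the log2 scale (adjusted p = 0.856 by DESeq2), so it does not check the labels, and each direction given is that of libraries labelled HDAC8 relative to EV. Melanocytic markers were present, 7 of 8 at a mean of at least 50 normalized counts, and 5 of the 8 were called lower, beside 5.44% of all genes. Their sum was 244961 to 328760 normalized counts in EV and 137043 to 182218 in HDAC8 libraries. PMEL carried most of it (169800.1 to 247771.6 in EV and 89540.4 to 147944.3 in HDAC8). MLANA had 8323.2 to 9052.3 in EV and 236.9 to 372.4 in HDAC8 libraries, whereas the groups overlapped for MITF (16257.0 to 17935.2 and 11313.6 to 17919.5). Of the markers of other cell types, 3 of 6 for fibroblasts, 1 of 5 for endothelium, 1 of 6 for leukocytes, 1 of 5 for keratinocytes and 0 of 5 for hepatocytes reached that mean. DCN, CDH5, MS4A1, KRT1, ALB, APOA1 and FGA had no count in any library and are named for that reason. Other markers of these lists had counts, such as VWF (89.7 to 208.6 normalized counts) and KRT10 (108.3 to 239.1). The summed leukocyte markers were higher in HDAC8 libraries (4332.7 to 6197.2 against 2367.7 to 3328.5), almost wholly through CD68, and CD3E had 50.1 to 91.1 normalized counts there and none in EV, with PTPRC at 0 to 2.6. The summed fibroblast markers were lower in HDAC8 libraries (1463.0 to 2423.1 against 2497.3 to 2894.1), a sum carried by LUM (1054.3 to 2157.9 against 2205.0 to 2662.4). PDGFRA (235.6 to 375.7 against 113.2 to 170.0) was higher, and was the 1 of the 6 that DESeq2 called, beside 5.57% of all genes called higher. The part of these values in the results on plasminogen activation genes was not tested. In bulk libraries a change in the number of cells that make a transcript and a change in its amount per cell cannot be told apart.

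To determine how the group differed between the vectors, each gene was compared within a fit over all 26162 genes that had enough counts to test. Calls required an adjusted p under 0.05 together with a change of 0.58 or more on the log2 scale, in either direction. SERPINE2, PLAT, PLAUR and ANXA2 rose between 2.08-fold and 3.69-fold. S100A10, LRP1 and VTN were not called, PLAU was close to zero, and PLG had no reads. Of the 9 genes, 8 entered the fit and 7 received an adjusted p, of which 4 were called higher and 0 lower. Over all genes with an adjusted p, 5.57% were called higher and 5.44% lower. At an unadjusted p under 0.05 the counts were 5 higher and 0 lower, where DESeq2 placed 9.78% of all tested genes under that p and higher and 9.70% under it and lower. edgeR and limma-voom also gave 4 higher and 0 lower, against backgrounds of 4.13% higher and 3.99% lower for edgeR and 3.80% higher and 4.14% lower for limma-voom. The median log2 fold change of the 7 genes was 1.06, beside -0.003 for all genes. The groups did not overlap, with HDAC8 higher, in 5 of the 8 genes, and in 11.3% of all genes tested. No gene of the group was lower without overlap, which 12.7% of all genes were. Without HDAC8 replicate 1, 5 genes were called higher, S100A10 being the addition, beside 5.37% of all genes.

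**Figure D1:**
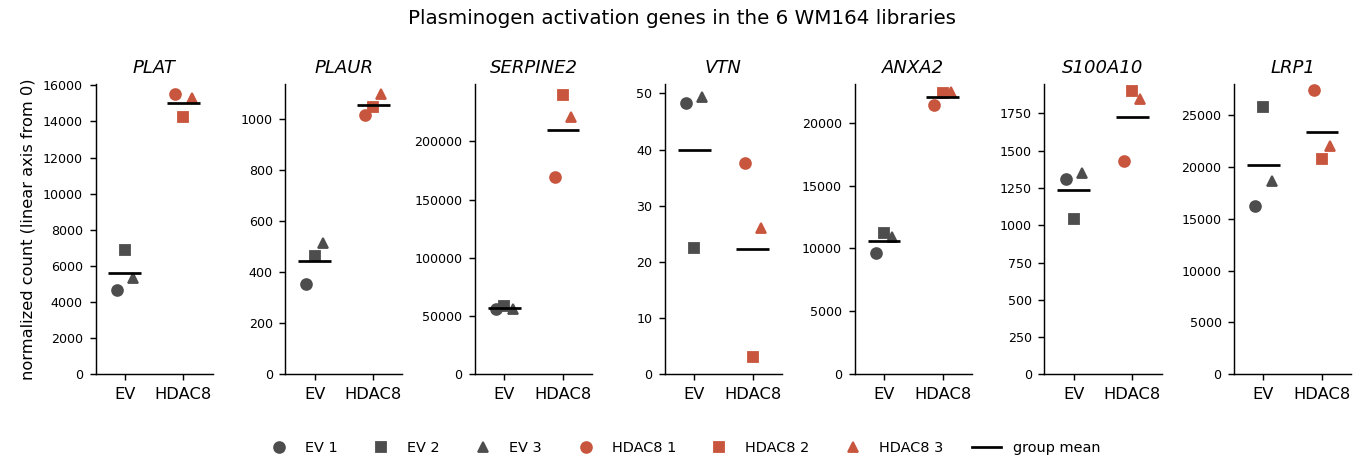
Normalized counts (linear axes from 0) of 7 plasminogen activation genes in the 3 EV and 3 HDAC8 libraries, with symbols for replicate numbers and a bar at each group mean. All 3 HDAC8 libraries lie above all 3 EV libraries for PLAT, PLAUR, SERPINE2, ANXA2 and S100A10, whereas the groups overlap for VTN and LRP1. PLAU and PLG are left out because at most 1 library per group had a read.

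PLAT, which encodes the tissue-type activator, was the activator these cells expressed. EV replicates 1 to 3 had 4652.6, 6882.2 and 5350.2 normalized counts, and HDAC8 replicates 1 to 3 had 15514.6, 14218.3 and 15286.7. The lowest HDAC8 library was above the highest EV library, and the spread was wider in EV (coefficient of variation 20.3%) than in HDAC8 (4.61%). This is a 2.67-fold rise with a 95% interval of 2.15 to 3.30 (1.41 ± 0.16 SE on the log2 scale, adjusted p = 6.29e-17 by DESeq2). PLAT (ENSG00000104368) lies on GRCh38 chromosome 8 from 42174718 to 42207709 on the minus strand.

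PLAU, the urokinase gene, was almost silent. EV replicates 1 to 3 had 1, 0 and 0 counts and HDAC8 replicates 1 to 3 had 13, 0 and 0, so that a single HDAC8 library, replicate 1, held nearly all of its reads. DESeq2 gave no adjusted p, and no fold change is given because the EV libraries are at or under 3 counts. The gene (ENSG00000122861, chromosome 10, 73909177 to 73917496, plus strand) shares 915 exon bases with C10orf55 on the opposite strand, and without stated strand-specific counting the reads of overlapping genes cannot be assigned with certainty. C10orf55 had 14.7 normalized counts in EV replicate 1 and none in the other libraries. A change of PLAU was not detectable at this depth.

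The receptor for urokinase nevertheless rose. With the empty vector PLAUR had 355.5, 461.4 and 515.2 normalized counts, and with the HDAC8 vector 1014.1, 1045.7 and 1097.7. The HDAC8 libraries lay close together (coefficient of variation 4.01%), and all were far above the highest EV value. PLAUR thus rose 2.37-fold, with a 95% interval of 1.70 to 3.31 (1.24 ± 0.25 SE on the log2 scale, adjusted p = 1.30e-05 by DESeq2). PLAUR (ENSG00000011422, chromosome 19, 43646095 to 43670547, minus strand) was not called when DESeq2 tested the change against the 0.58 minimum itself (adjusted p = 0.178), whereas SERPINE2 (1.60e-17), PLAT (1.32e-05) and ANXA2 (0.00515) were. Under that test 1.39% of all genes were higher and 1.38% lower.

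SERPINE2 was the most abundant transcript of the group and rose the most. This serpin, also called protease nexin-1, inhibits thrombin, both plasminogen activators and plasmin. Normalized counts of 56345.6, 58564.2 and 55885.2 with the empty vector stood against 169429.1, 239961.3 and 221310.0 with the HDAC8 vector. The EV values were nearly equal (coefficient of variation 2.52%), whereas HDAC8 replicate 1 was well below HDAC8 replicates 2 and 3 (coefficient of variation 17.4%). Means were 56931.7 ± 1432.4 and 210233 ± 36547.4 (SD, n = 3). The rise was 3.69-fold with a 95% interval of 3.04 to 4.48 (1.88 ± 0.14 SE on the log2 scale, adjusted p = 2.50e-37 by DESeq2). SERPINE2 (ENSG00000135919) lies on chromosome 2 from 223975045 to 224039318 on the minus strand.

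The rise of SERPINE2 was among the largest of the transcriptome in absolute amount, whereas by log2 fold change it ranked 223rd among the called rises with a mean of at least 50 normalized counts. It took 0.141% to 0.154% of all counts in the EV libraries and 0.473% to 0.624% in the HDAC8 libraries, shares that do not depend on the scaling between libraries. By normalized count per kilobase of merged exons it ranked 108th of all genes in EV and 33rd in HDAC8, and its gain on that scale ranked 3rd. With the longest transcript as the length, the ranks were 105th and 31st. The 9 genes together took 0.234% to 0.265% of the counts in EV and 0.66% to 0.78% in HDAC8 libraries. SERPINE2 made up 56.3% to 63.6% of that sum in EV and 71.7% to 79.9% in HDAC8 libraries.

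ANXA2, one subunit of the surface receptor for plasminogen and tPA, also rose. Libraries with the empty vector had 9666.0, 11193.2 and 10877.8 normalized counts and HDAC8 libraries 21394.1, 22339.8 and 22408.5, with no overlap and a coefficient of variation of 2.57% in the latter. The gain was 2.08-fold with a 95% interval of 1.76 to 2.46 (1.06 ± 0.12 SE on the log2 scale, adjusted p = 1.26e-15 by DESeq2). ANXA2 (ENSG00000182718, chromosome 15, 60347134 to 60402883, minus strand) has processed copies to which its reads could be assigned. ANXA2P1 and ANXA2P2 had at most 54.4 and 52.2 normalized counts in any library and ANXA2P3 had none.

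S100A10, the other subunit, was not called. It had 1309.7, 1043.2 and 1347.7 normalized counts in EV and 1428.8, 1902.9 and 1843.6 in HDAC8 libraries. All HDAC8 libraries were above all EV libraries, but HDAC8 replicate 1 exceeded the highest EV library by little. On the log2 scale the difference was 0.48 ± 0.21 (SE), with an adjusted p of 0.108 by DESeq2 and a 95% interval of 1.06 to 1.85 for the fold change. Without HDAC8 replicate 1 it was 0.60 and the gene was called (DESeq2 adjusted p = 0.0151). S100A10 (ENSG00000197747) lies on chromosome 1 from 151982915 to 151993859 on the minus strand.

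LRP1, the endocytic receptor that clears protease and inhibitor complexes, was abundant in both groups. It had 16241.8, 25776.6 and 18594.3 normalized counts in EV and 27387.4, 20703.2 and 21975.1 in HDAC8 libraries. EV replicate 2 was above HDAC8 replicates 2 and 3, so the groups overlapped. DESeq2 gave a difference of 0.21 ± 0.18 (SE) on the log2 scale with an adjusted p of 0.551, and the 95% interval of the fold change ran from 0.911 to 1.47. LRP1 (ENSG00000123384, chromosome 12, 57128483 to 57213361, plus strand) shares 59 exon bases with STAT6 and 112 with LRP1-AS on the opposite strand. STAT6 had a mean of 3701.6 normalized counts and LRP1-AS of 2.43.

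VTN and PLG, whose proteins are mainly made by the liver, were low or absent. VTN encodes vitronectin, a ligand of uPAR and of integrins. Its normalized counts were 48.2, 22.4 and 49.3 in EV and 37.6, 3.1 and 26.1 in HDAC8 libraries, with overlap between the groups. DESeq2 gave -0.84 ± 1.11 (SE) on the log2 scale with an adjusted p of 0.761, and the 95% interval of 0.124 to 2.52 on the fold scale is too wide to show a change in either direction. VTN (ENSG00000109072, chromosome 17, 28367284 to 28373091, minus strand) shares 329 exon bases with AC002094.3, which had no count. PLG (ENSG00000122194, chromosome 6, 160702194 to 160754097, plus strand) had 0 counts in each of the 6 libraries, which at 3 counts per library allows a level of up to 0.0714 to 0.0864 CPM. This limit covers counting error only.

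**Figure D2:**
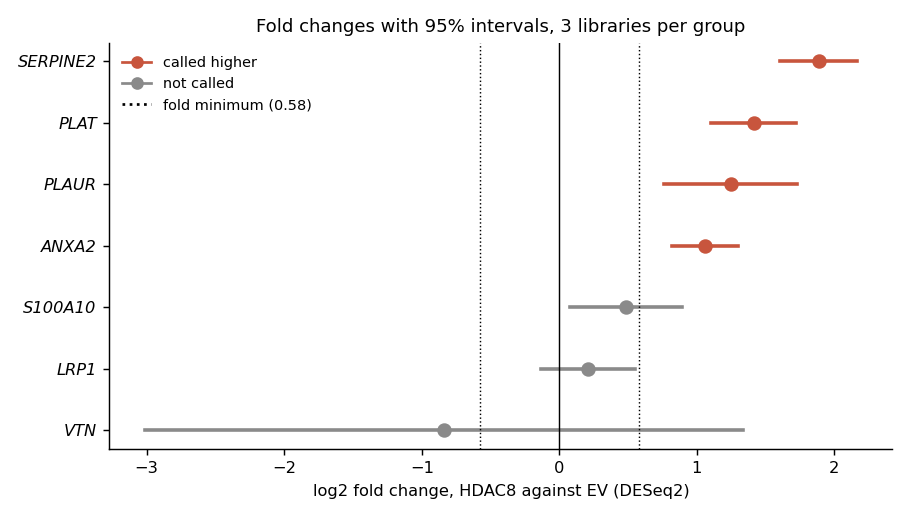
DESeq2 log2 fold changes of HDAC8 against EV (horizontal axis) for the 7 genes with an adjusted p, with 95% intervals as lines and the 0.58 minimum as dotted lines. The intervals of SERPINE2, PLAT, PLAUR and ANXA2 lie wholly above 0.58, that of S100A10 extends on both sides of it, that of LRP1 ends just below it (0.55), and that of VTN runs from -3.01 to 1.33.

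The levels were next put in order on a per-length scale, in normalized counts per kilobase of merged exons. In the EV group SERPINE2 was first, with 6356.1 ± 159.9 per kilobase (SD, n = 3), and its range was apart from all others. S100A10 (1218.9 ± 163.9), LRP1 (968.6 ± 238.1), ANXA2 (914.0 ± 69.7) and PLAT (724.4 ± 146.8) followed, and in this run each gene overlapped the next. PLAUR (99.6 ± 18.2) and VTN (21.0 ± 7.99) were each apart from the gene before them, and PLAU and PLG came last. In the HDAC8 group SERPINE2 was again first and apart, at 23471.4 ± 4080.3 per kilobase. PLAT moved up to follow SERPINE2 directly (1931.3 ± 89.1), next to ANXA2 (1904.9 ± 49.0) and S100A10 (1704.7 ± 255.2), and the ranges of neighbours overlapped in this trio. LRP1 (1119.7 ± 170.2) and PLAUR (236.1 ± 9.46) were apart from their neighbours, whereas VTN overlapped PLAU and PLAU overlapped PLG. The order of the genes in the middle depended on the length chosen. With the longest transcript in place of merged exons, the EV order after SERPINE2 was ANXA2, S100A10, PLAT and LRP1, and in HDAC8 ANXA2 and PLAT changed places.

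**Figure D3:**
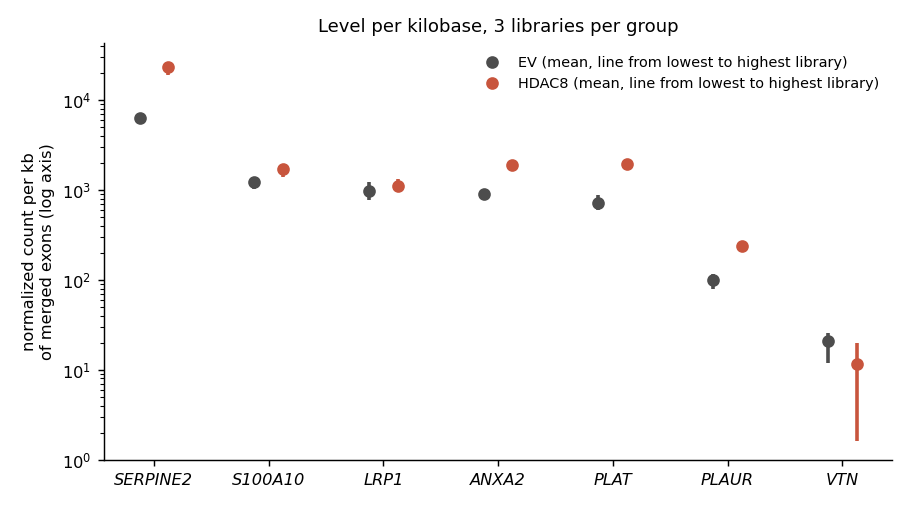
Normalized count per kilobase of merged exons (log axis) of 7 plasminogen activation genes in EV and HDAC8 libraries, with the mean as a point and a line from the lowest to the highest of 3 libraries. SERPINE2 is above every other gene in both groups, and PLAT moves from 724.4 to 1931.3 on this scale while LRP1 is at 968.6 and 1119.7.

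Because activator and inhibitor rose together, their ratio was examined within each library, where scaling between libraries has no effect. The log2 ratio of PLAT plus PLAU to SERPINE2 was -3.60, -3.09 and -3.38 in EV and -3.45, -4.08 and -3.86 in HDAC8 libraries. HDAC8 replicate 1 lay among the EV values, so the groups overlapped. The difference of HDAC8 from EV was -0.44 (two-sided exact permutation test, p = 0.2), in a design where 3 libraries against 3 cannot give a p below 0.1. The inhibitor transcript exceeded the activator transcripts in each of the 6 libraries, by 8.51-fold to 16.9-fold in counts not corrected for length.

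The balance of the receptor subunits was compared in the same way. The log2 ratio of S100A10 to ANXA2 was -2.88, -3.42 and -3.01 in EV and -3.90, -3.55 and -3.60 in HDAC8 libraries. All 3 HDAC8 libraries were below all 3 EV libraries. The difference was -0.58 (two-sided exact permutation test, p = 0.1, the smallest p this design allows), and it was the same to 2 decimals with the ANXA2 copies added to ANXA2. The log2 ratio of PLAU to PLAUR, with 1 added to each normalized count, was -7.44, -8.85 and -9.01 in EV and -6.39, -10.03 and -10.10 in HDAC8 libraries. The HDAC8 libraries lay on both sides of the EV values, and the difference was -0.40 (two-sided exact permutation test, p = 0.7). Its sign turned when EV replicate 1 (0.0918), HDAC8 replicate 2 (0.191) or HDAC8 replicate 3 (0.226) was left out, and PLAU had 0 counts in 4 of the 6 libraries.

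**Figure D4:**
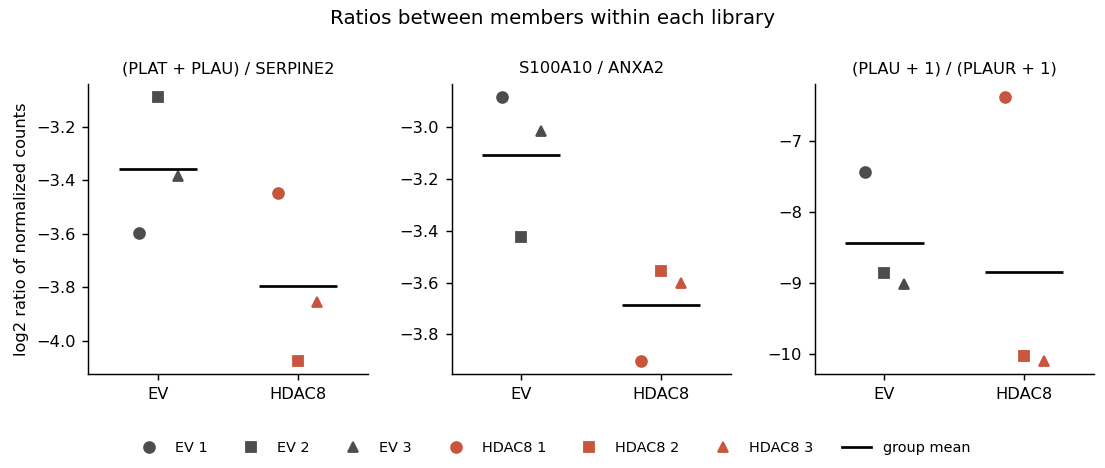
Log2 ratios of normalized counts within each library (vertical axes, one per panel) for activators to SERPINE2, S100A10 to ANXA2, and PLAU to PLAUR, in 3 EV and 3 HDAC8 libraries with group means as bars. The S100A10 to ANXA2 panel is the one in which the groups separate, with EV from -3.42 to -2.88 and HDAC8 from -3.90 to -3.55.

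The sequence before the start sites was read for the genes that rose, with letters of motifs known for AP-1 (the JUN and FOS factors), for E-boxes bound by factors such as MITF, and for TEAD. RefSeq windows of 250 bases before a start (GRCh38.p14) were available for 8 of the 9 genes, in 11 windows, and PLAT was not read. TGANTCA, the AP-1 motif, was found in the windows of PLAUR and ANXA2 and in none of the other windows read, and 6.57% of 35116 windows of this length hold it. It is given in capitals with 10 bases on each side, on the strand of the gene, because these genes rose and carry the same letters. Counted from the start, the first motif base is at -186 in PLAUR and at -127 in ANXA2, and the stretches are chr19:43670339-43670365 and chr15:60398097-60398123, both on the minus strand. All 250 bases of the PLAUR window and 134 of the ANXA2 window also lie in an annotated exon of another transcript of the gene.
PLAUR: cacaactccaTGAGTCAgggccgagcc
ANXA2: cgggccggggTGAGTCAcccctgactt

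SERPINE2 had 2 windows, and the one before the downstream start held 6 E-box matches. CACGTG occurred 1 time, at -87 from the start, and CATGTG, which reads CACATG on the other strand, occurred 5 times. Over all windows 6.34% hold CACGTG and 9.42% hold CATGTG, whereas 4 windows (0.0114%) hold CATGTG 5 or more times. The count of 5 was chosen after the sequence had been seen. The printed sequence repeats itself along the window, and E-boxes recur with the repeat (CACATG at -233, -156 and -79). The matches are therefore not independent of each other, and the share of windows holding 5 or more does not treat them as copies. The window, chr2:224031479-224031728 on the minus strand, overlaps no annotated exon of SERPINE2 and is printed with the E-boxes in capitals because it belongs to the gene that rose the most.
SERPINE2: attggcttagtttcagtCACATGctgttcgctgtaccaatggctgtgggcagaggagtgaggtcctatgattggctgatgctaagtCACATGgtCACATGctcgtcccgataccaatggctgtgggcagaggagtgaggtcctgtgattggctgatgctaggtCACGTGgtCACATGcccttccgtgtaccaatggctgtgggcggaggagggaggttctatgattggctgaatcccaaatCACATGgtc

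None of the motifs occurred in the other SERPINE2 window or in those of S100A10, LRP1, PLAU and PLG. The VTN window held GGAATG, the TEAD motif, as 11.9% of windows do. Both strands were searched, no matches of different motifs overlapped, and a match describes letters and does not show that a factor binds there.

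Other genes of the pathway were taken from lists by role, 85 genes in all, of which 71 entered the fit and 67 received an adjusted p. DESeq2 called 11 higher and 6 lower (16.4% and 8.96% of those with an adjusted p, beside 5.57% and 5.44% of all genes), and their median log2 fold change was -0.02. Without EV replicate 2, 3 were called lower, beside 4.33% of all genes. Against the 0.58 minimum itself, 5 were higher and 2 lower, beside 1.39% and 1.38% of all genes. A further 5 genes passed the adjusted p with a smaller change, and they are named here after their values were seen: ITGB1, AHNAK and TGFB1 were higher, and LRP8 and ANXA11 lower. The share of all genes with such a smaller change was not counted, so the 5 are a description only. The counts by list that follow stand beside the same 5.57% higher and 5.44% lower of all genes. Each list holds 6 to 16 genes with an adjusted p, so its count rests on few genes and describes those genes only.

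Among 8 further inhibitors with an adjusted p, SERPINA5, a serpin that inhibits activated protein C and urokinase, was called higher and none lower. Its mean rose from 1063.3 ± 185.6 to 1808.9 ± 401.0 normalized counts (SD, n = 3), which DESeq2 put at 0.77 ± 0.23 (SE) on the log2 scale with an adjusted p of 0.00879. Of 6 proteases that can activate pro-urokinase or plasminogen, none was higher and 1 was lower. CTSL, the lysosomal protease cathepsin L, fell from 6683.6 ± 589.6 to 3854.7 ± 1271.1 normalized counts (log2 fold change -0.79). Of 6 other plasminogen receptors, ENO1, a glycolytic enzyme that also binds plasminogen at the cell surface, rose from 40787.7 ± 6570.3 to 64622.2 ± 15201.9 (log2 fold change 0.66), and the other 5 were not called.

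Of 10 partners of uPAR with an adjusted p, 4 were called higher and 1 lower, beside 5.57% and 5.44% of all genes. uPAR has no intracellular part and signals through integrins, receptor tyrosine kinases and caveolin. ITGB5, an integrin subunit that pairs with ITGAV to bind vitronectin, had 2171.2 to 2981.1 normalized counts in EV and 7747.9 to 10934.8 in HDAC8 libraries (log2 change 1.83, SE 0.18, adjusted p = 4.62e-22 by DESeq2). The other subunits of vitronectin receptors, ITGAV (0.04) and ITGB3 (-0.18), named after their values were seen, were not called. EGFR, the epidermal growth factor receptor, was low in EV (36.4 to 84.9) and ran from 358.5 to 375.7 in HDAC8 libraries (log2 change 2.78, SE 0.46). CAV1, the coat protein of caveolae, had 1232.8 to 1759.6 in EV and 2317.3 to 4692.7 in HDAC8 libraries, a rise of 1.36 on the log2 scale (SE 0.24). MRC2, a collagen receptor that associates with uPAR, fell by 0.62 on the log2 scale.

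In the family of LRP1, 2 of 11 genes were called higher and 2 lower, and the median log2 fold change was -0.29. LRP5, a Wnt co-receptor, rose from 2305.1 ± 191.7 to 3842.3 ± 813.3 normalized counts (SD, n = 3), by 0.74 on the log2 scale. LRP4, a regulator of Wnt and agrin signalling, fell from 3103.9 ± 524.6 to 1239.7 ± 89.1 (log2 change -1.32, SE 0.18, adjusted p = 6.32e-11 by DESeq2). LRP1B, the closest relative of LRP1, had 221.3 to 356.8 normalized counts in EV and 13.3 to 88.9 in HDAC8 libraries, a fall (log2 change -2.37, SE 0.60).

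Of 10 further annexins, S100 proteins and AHNAK, ANXA1 was called higher and none lower. ANXA1, an annexin known for anti-inflammatory signalling, had 691.6 to 827.3 normalized counts in EV and 4533.3 to 5485.3 in HDAC8 libraries. Its log2 change of 2.70 (SE 0.17, adjusted p = 7.96e-55 by DESeq2) stood beside a median of -0.18 for the list. AHNAK, a large scaffold bound by the ANXA2 and S100A10 complex, changed by 0.48 on the log2 scale (SE 0.12, adjusted p = 0.00182 by DESeq2), which is under the fold minimum.

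Of 16 substrates of plasmin or growth factors that it releases, 2 were higher and 2 lower. FN1, fibronectin, rose from 184194 ± 28752.8 to 300826 ± 9475.1 normalized counts (log2 fold change 0.71), and LTBP1, which tethers latent TGF-beta to the matrix, from 1690.6 ± 321.6 to 4901.3 ± 205.5 (log2 change 1.54, SE 0.18, adjusted p = 3.46e-16 by DESeq2). FGF2, a growth factor stored on heparan sulfate, fell from 631.6 ± 83.3 to 321.6 ± 103.9, by 0.98 on the log2 scale. BDNF, whose precursor plasmin can cleave, fell from 1588.4 ± 242.0 to 476.4 ± 46.3 (log2 change -1.74, SE 0.22, adjusted p = 6.42e-13 by DESeq2).

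**Figure D5:**
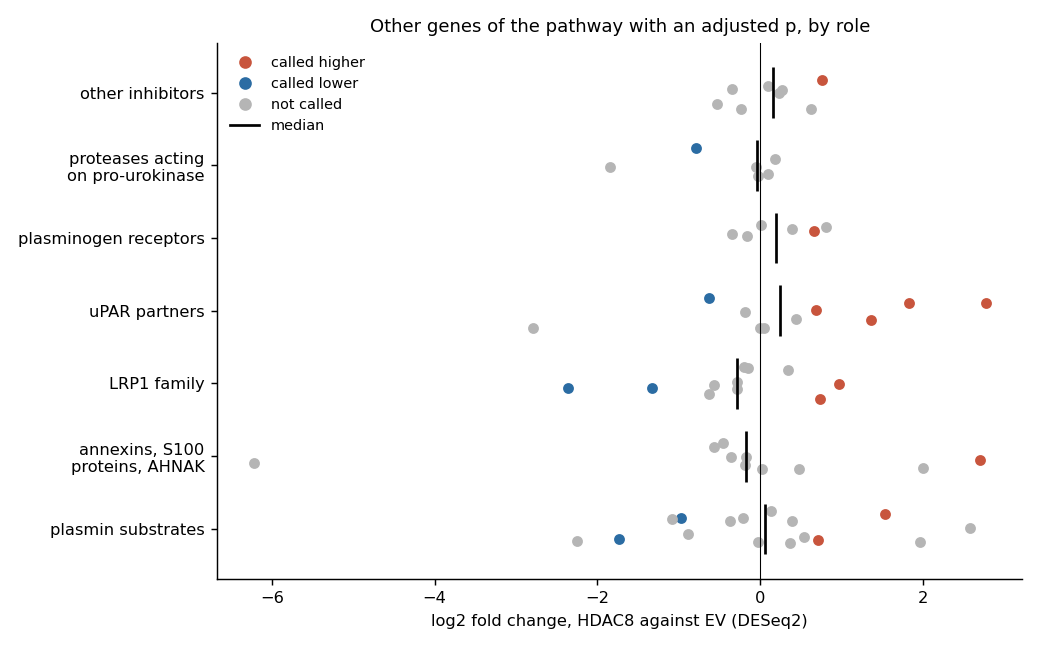
DESeq2 log2 fold changes of HDAC8 against EV (horizontal axis) for the 67 other pathway genes with an adjusted p, in rows by role, with called genes coloured and the median of each list as a bar. Calls of both directions occur in 3 of the lists, and the medians lie between -0.29 and 0.24.

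Finally, the genes whose levels over the 6 libraries were most like those of SERPINE2, PLAT and PLAUR were listed as a description. The measure was Pearson's r of log2(normalized count + 1) among 12224 protein-coding genes with a mean of at least 50. With 6 libraries in 2 groups, many genes come close, and r was at least 0.95 for 411 genes with SERPINE2, 512 with PLAT and 380 with PLAUR. The 3 most like each of them had r from 0.996 to 0.999. For SERPINE2 they were PTN, SEMA3C and PALLD. SEMA3C had 3096.0 to 3116.0 normalized counts in EV and 8810.8, 11788.0 and 10587.9 in HDAC8 libraries, the same order of HDAC8 libraries as SERPINE2, and PTN had none in EV and 95.8, 315.4 and 245.0 in HDAC8 libraries. For PLAT they were APLP2, TMEM11 and FSCN1, and FSCN1 shared with it the highest value within EV in replicate 2 (5969.7). For PLAUR they were STT3A, ST3GAL1 and CFAP69, with EV replicate 1 the lowest library in each (8939.3 for STT3A, 2821.8 for ST3GAL1 and 9.4 for CFAP69).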

How the data were processed

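RNA-seq counts of 3 EV and 3 HDAC8 libraries of WM164 cells were used, grouped by the labels. Per the labels and the methods of the study, the authors used Trimmomatic for trimming, STAR for alignment of paired-end reads and RSEM for gene quantification. The deposited values, expected counts not scaled between libraries, divide a read among the genes it could come from. The labels and the methods name different RNA kits. Genome build and strand setting are not given in the sources used here. Gene positions and exon lengths came from GENCODE release 44 (GRCh38).

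Expected counts were rounded. DESeq2 1.42.0 in R 4.3.3 (two-sided Wald test, size factors 0.918 to 1.17, no covariate) was fitted to all genes whose counts summed to 10 or more, with Benjamini-Hochberg adjustment over all genes. DESeq2 gave no adjusted p for 5141 of 26162 genes, which were left out of counts of calls. Intervals are at the 95% level. Ratios were compared by exact permutation over libraries. The fits were tested on simulated data. Alternatives were edgeR 4.0.16, limma-voom (limma 3.58.1), other size factors and filters, a replicate block, a test against the fold minimum, other lengths and pseudocounts, and each library left out, and a fit without mitochondrially encoded genes was chosen after seeing the data.

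The members, gene lists and tests were chosen with earlier results of these data known. Named genes are the 9 members, HDAC8, in each list the called gene with the largest change in each direction (mean of at least 50 normalized counts) and up to 2 further called genes by size, and for SERPINE2, PLAT and PLAUR the 3 genes of highest correlation. Of these, 1 is not reported here.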

Additional observations from a re-analysis of the deposited data

How the results depend on the processing

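SERPINE2, PLAT, PLAUR and ANXA2 were called higher under each of 15 alternative fits, with log2 fold changes of 1.78 to 2.02, 1.29 to 1.58, 1.11 to 1.36 and 1.00 to 1.10. The separate test against the 0.58 minimum itself called 3 of them and not PLAUR. LRP1 was called under none of the 15, and VTN under none of the 14 that it entered. Leaving out 1 library nevertheless moved the log2 fold change of LRP1 from 0.07 (without EV replicate 1) to 0.42 (without EV replicate 2, DESeq2 adjusted p = 0.0784). That of VTN moved from -1.46 (without HDAC8 replicate 1) to -0.32 (without HDAC8 replicate 2). S100A10 was called under 1 alternative, without HDAC8 replicate 1. The log2 fold change of PLAU ran from -0.87 without that library, which held nearly all of its reads, to 4.40 without EV replicate 1. Other pathway genes called higher numbered 5 and lower 2 against the minimum, beside 1.39% and 1.38% of all genes. Leaving out 1 library at a time gave 8 to 14 higher, with 8 without HDAC8 replicate 1, beside 5.37% of all genes, and 14 without EV replicate 2. It gave 3 to 7 lower, with 3 without EV replicate 2, beside 4.33% of all genes. Other shares of all genes called with 1 library left out were not counted. The difference in the log2 ratio of PLAU to PLAUR ran from -1.63 to 0.226 over libraries left out, that of activators to SERPINE2 from -0.61 to -0.29, and that of S100A10 to ANXA2 from -0.74 to -0.47.

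Same-numbered EV and HDAC8 libraries did not deviate together (r = -0.0273, -0.0663 and 0.0399), and r ran from -0.111 to 0.15 for differently numbered ones. The measure gave no sign of pairing by number, and a shared preparation of same-numbered libraries was not tested. With the replicate block, 4 members were called higher and 0 lower, and 12 other pathway genes higher and 5 lower. The share of all genes called in that fit was not counted. The paired ratio differences of -0.44, -0.58 and -0.40 equal the unpaired ones by arithmetic, so they are no further check. Depth limits PLAU, PLG and VTN, and the causes of the changes without single libraries were not tested.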
